A study of Mus musculus with 8 samples.

Results

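The sites described here are the positions of N6-methyladenosine (m6A) that were listed in both libraries after knockdown of Virma and in neither control library. They were selected on the authors' site calls: the same chromosome, position and strand had to stand in both siVirma lists and in neither siNC list. This gave 1667 sites, which is 5.93% of the 28098 sites shared by the siVirma lists and 1.94% of the 85953 sites in any TBLC list. The mouse cells were TBLC cultured in MYCP medium and given a control siRNA (siNC, 2 libraries) or an siRNA against Virma (siVirma, 2 libraries). A separate table covers EPSC, another mouse cell type, in which dCas13b fused to the m6A eraser FTO was directed by a control guide (sgCtrl) or by one against Gata6 (sgGata6). It gives 1 pooled value per group. The design text states that the knockdown was made to follow the effect of Virma on the m6A profile, and the guide experiment to check the efficiency of targeted demethylation. Knockdown was by siRNA, so Virma was reduced and not deleted: siNC had 40.3 and 38.2 of gene coverage for Virma, and siVirma 24.0 and 22.8.

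Virma is the scaffold subunit of the nuclear m6A writer complex, in which Mettl3 carries the catalytic activity and Wtap, Zc3h13, Cbll1 and the RNA-binding adaptors Rbm15 and Rbm15b direct it to transcripts. m6A is found mainly near stop codons and in long internal exons, and its readers include YTH-domain proteins such as Ythdf2, which shortens the life of the RNA. GLORI measures it at single-base resolution through a chemical deamination that makes plain adenosine appear as G in the reads and leaves m6A as A. The level of a site is the number of A reads divided by the A and G reads together.

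The lists hold called sites only. The lowest values in them are 15 A+G reads, 5 A reads and a level of 0.1, so absence from a list gives no level and no read number there. The 4 lists hold 66350 and 61957 sites in siNC and 41082 and 34739 in siVirma, over 4764955, 4367999, 3423268 and 2655963 A+G reads. All 10 pluripotency markers had a listed site in both siNC libraries, and 9 in each siVirma library. Markers of 2-cell-like cells were listed for 7, 7, 5 and 3 of 8 genes, with Dux in no list, and fibroblast markers for 7, 7, 5 and 6 of 8. Primitive endoderm markers were listed for 5, 4, 4 and 4 of 6 genes, with Foxa2 in no list, and trophectoderm markers for 2, 1, 2 and 1 of 6, with Cdx2, Elf5 and Krt18 in none. The gene coverage of the pluripotency markers summed to 2656 and 2619 in siNC, against 1867 and 1520 in siVirma. The 2-cell-like markers summed to 253 and 236 against 174 and 124, and the fibroblast markers to 475 and 461 against 422 and 367. Primitive endoderm markers summed to 128 and 101 against 109 and 96.4, and trophectoderm markers to 41.3 and 22.5 against 46.2 and 20.6. A marker without a listed site in a library has no gene coverage there and adds nothing to the sum. The sums thus cover different genes in different libraries, and a lower sum cannot be read as lower expression. The part of these cell types in the results was not tested. The labels do not say whether the replicates came from separate cultures, so p-values measure only the spread between these libraries.

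The sites listed only after knockdown were thinly covered and had intermediate to high levels. The median number of A+G reads was 26 (interquartile range 20 to 40) in siVirma replicate 1 and 22 (17 to 31.5) in siVirma replicate 2. The sites of all 4 lists had medians of 62 and 50 reads in the same libraries. The median level was 0.404 in replicate 1 and 0.412 in replicate 2, against 0.282 and 0.288 at the 23354 sites of all 4 lists. The rule used these lists, so these values are a description and carry no test.

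Part of the 1667 sites lay at or near the edge of what can be listed. In at least 1 siVirma library, 211 had exactly 15 A+G reads and 288 had exactly 5 A reads, while 37 had a level under 0.12. A total of 734 sites (44.0%) had 15 to 19 reads in at least 1 siVirma library, against 5.14% of the sites of all 4 lists. A site with few reads needs a higher level to reach 5 A reads, which the curve in the plot of reads and levels marks. At the other end, 253 sites (15.2%) in 132 genes had at least 50 reads in both siVirma libraries, with a median level of 0.344 (interquartile range 0.212 to 0.483).

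**Figure D1:**
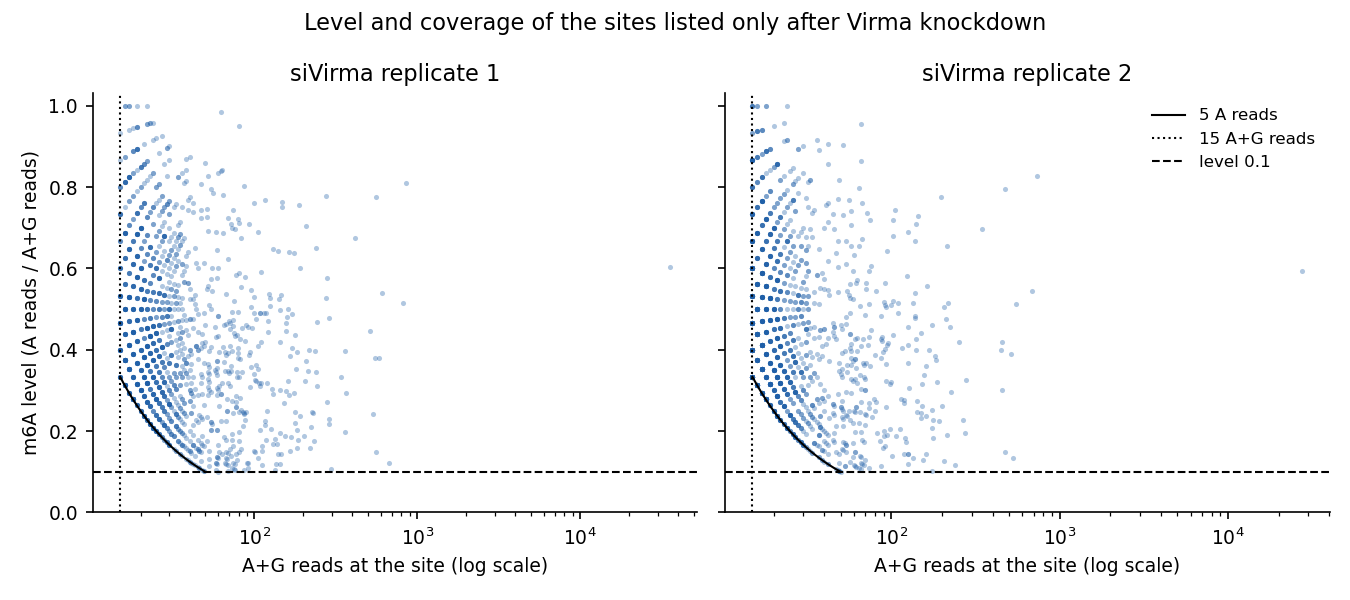
Level against A+G reads (log scale) for the 1667 sites in each siVirma library, 1 point per site, with lines at 15 A+G reads, 5 A reads and a level of 0.1. Of the 1667 sites, 734 have 15 to 19 reads in at least 1 library, and 253 sites have at least 50 reads in both libraries.

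The levels differed more between the siVirma libraries than at the sites of all 4 lists, which had more reads. The median absolute difference between the replicates was 0.0720, against 0.0473 at the sites of all 4 lists. A total of 190 sites (11.4%) differed by more than 0.2, against 3.40%. Pearson's r across sites was 0.787 over all 1667 sites and 0.944 over the 253 sites with at least 50 reads. Sites are not independent replicates, and neighbouring sites share reads.

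Just outside the rule stood 3077 sites listed in both siVirma libraries and in 1 siNC library. They had medians of 30 and 25 reads in siVirma and levels of 0.375 and 0.381. In the siNC library that listed them, their median level was 0.778 (replicate 1, 2029 sites) and 0.741 (replicate 2, 1048 sites), at 23 and 20 reads. The 16405 sites listed in both siNC libraries and in neither siVirma library had other values. Their median siNC level was 0.214 in each library, at 48 and 46 reads.

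The share of siVirma sites that were in neither siNC list fell steeply with coverage and then levelled off. It was 34.5% (473 of 1371) at a mean of 15 to 20 siVirma reads, 13.1% at 20 to 30, 3.30% at 30 to 50, 2.12% at 50 to 100 and 1.92% (107 of 5560) at 100 or more. At low coverage the levels of the sites listed only after knockdown were close to those of the sites of all 4 lists, 0.469 and 0.476 at 15 to 20 reads. At high coverage they differed: 0.339 against 0.251 at 50 to 100 reads, and 0.347 against 0.227 at 100 or more.

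Well-covered sites listed only after knockdown had more siVirma-listed sites close by than other well-covered sites had. Among sites with at least 50 reads in each siVirma library, the mean number of other siVirma-listed sites within 50 nt was 1.94 at the 253 sites in neither siNC list. It was 1.43 at the 382 sites of 1 siNC list and 0.470 at the 11481 sites of all 4 lists. Read the other way, with no such neighbour 0.252% (18 of 7144) of the siVirma sites were in neither siNC list. With 1 neighbour the share was 1.38% (51 of 3693), with 2 it was 10.9% (121 of 1108), and with 3 or more it was 36.8% (63 of 171; Wilson interval 29.98% to 44.3%, counting error only). At a minimum of 100 reads the 4 shares were 0.109%, 1.07%, 11.5% and 40.7%. The density measure was chosen after the data were seen, and it counts the described sites themselves among the neighbours.

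**Figure D2:**
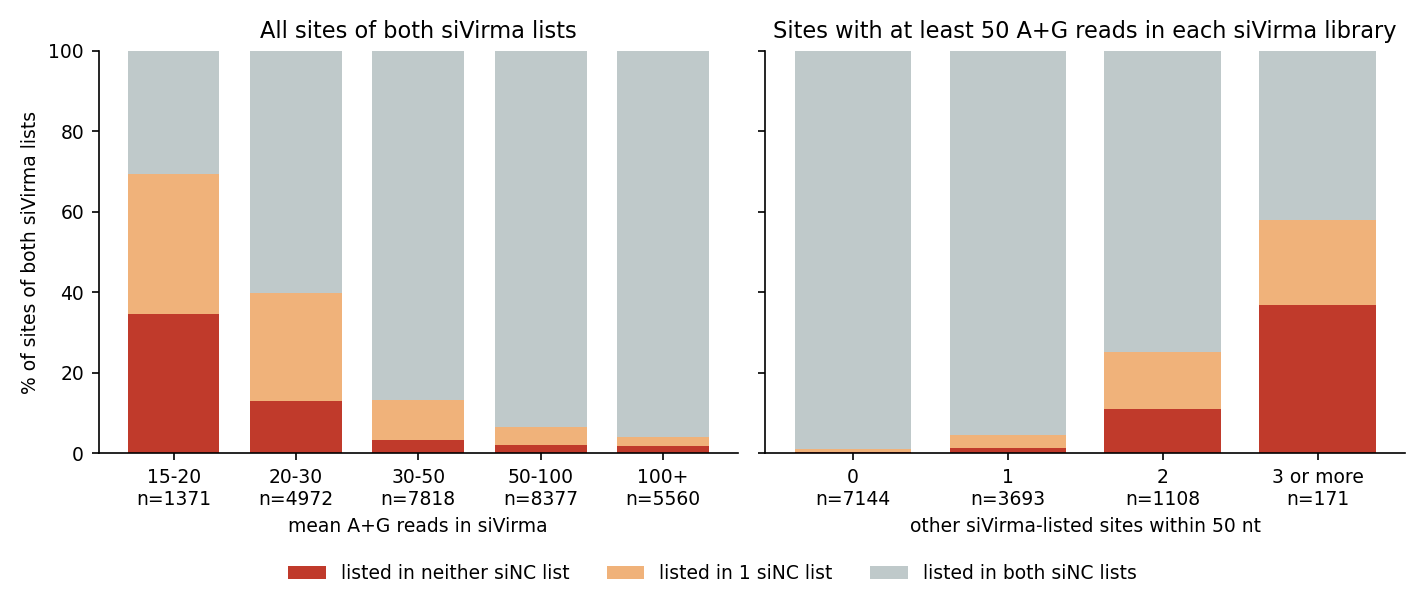
Stacked bars of the percentage of sites of both siVirma lists that were listed in neither, 1 or both siNC lists, by mean siVirma A+G reads (left) and, for sites with at least 50 reads in each siVirma library, by the number of other siVirma-listed sites within 50 nt (right), with the number of sites under each bar. The share in neither list falls from 34.5% to 1.92% with coverage and rises from 0.252% to 36.8% with local density.

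The level of the well-covered sites in neither siNC list differed with density: a median of 0.139 for the 18 sites with no neighbour, close to the minimum of 0.1, and 0.366, 0.387 and 0.283 with 1, 2 and 3 or more. Of the 253 well-covered sites, 195 (77.1%) had another of the 1667 sites within 50 nt. In all, 513 of the 1667 sites stood in 211 runs with gaps of at most 50 nt, the longest holding 6 sites. The control lists were sparser there: 66.4% of the 253 had no site of both siNC lists within 50 nt, against 44.5% of the sites of all 4 lists. The part of local density in the missing siNC calls was not tested.

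Spry2, an inhibitor of receptor tyrosine kinase and ERK signalling, is an example of a gene with several of these sites at high coverage. On chromosome 14 (minus strand, mm39) it held 3 of the sites, at positions 106130536, 106130544 and 106130592. The first had 688 A reads of 849 (level 0.810) in siVirma replicate 1 and 610 of 737 (0.828) in replicate 2. The second had levels of 0.514 and 0.543 and the third of 0.381 and 0.398, all at 447 reads or more. The siNC lists held the sites on either side: 55 nt downstream with levels of 0.919 and 0.953 at 701 and 633 reads, and 110 nt upstream with 0.900 and 0.901 at 431 and 392 reads. In siVirma those flanking sites had 0.593 and 0.598, and 0.544 and 0.581. The 3 central sites were thus listed at levels up to 0.828 in siVirma, between flanking sites well covered in both siNC libraries.

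Epop, a protein that joins Elongin BC to Polycomb repressive complex 2, held 5 of the sites on chromosome 11 (minus strand). The most methylated, at position 97518951, had 433 of 559 reads as A (0.775) and 374 of 471 (0.794). Its neighbours at 97518955, 97518990 and 97519004 had levels of 0.243 and 0.301, 0.148 and 0.149, and 0.445 and 0.420. Within 200 nt of position 97518990 the siNC lists held 5 sites in each library, at 196 to 393 reads, and siVirma 9 in each. All 5 siNC sites were also listed in siVirma, at a lower level in both siVirma libraries than in both siNC libraries.

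Dpagt1, the enzyme that starts the lipid-linked N-glycan precursor, held 3 of the sites on chromosome 9 (plus strand). Position 44247255 had levels of 0.675 and 0.696 at 418 and 345 reads, 44247275 had 0.380 and 0.391 at 581 and 517 reads, and 44247281 had 0.539 and 0.514 at 610 and 549 reads. The nearest siNC site, 26 nt downstream of the last, was listed in siNC replicate 1 only, with a level of 0.12 at 753 reads. That single control site had more reads than any of the 3 sites had in siVirma.

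Atxn7l3, a subunit of the SAGA deubiquitinase module, held 2 sites on chromosome 11 (minus strand). Position 102182268 had levels of 0.295 and 0.196, and 102182280 had 0.332 and 0.326, at 276 to 363 reads. A site 16 nt downstream of the first was listed in siNC replicate 1 with a level of 0.928 at 307 reads and was not in the list of siNC replicate 2. In siVirma that site had 0.477 and 0.515.

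Yap1, the transcriptional coactivator of the Hippo pathway, held 6 of the sites on chromosome 9 (minus strand, 7934135 to 7934300), at 135 to 275 reads. Their mean levels ran from 0.131 to 0.579, with the highest at 7934157 (0.602 and 0.556) and 7934242 (0.527 and 0.476). Around 7934242 the siNC lists held 4 and 3 sites within 200 nt, at levels between 0.111 and 0.422. Setd5, a SET-domain chromatin protein, held 6 of the sites on chromosome 6 (plus strand, 113128178 to 113128456). The highest levels there were 0.750 and 0.680 at 113128264 and 0.640 and 0.565 at 113128422, and the siNC lists held 1 and 2 sites within 200 nt of the latter, at 42 to 61 reads. Sac3d1, a centrosome-associated protein, held 6 sites on chromosome 19 (minus strand, 6166281 to 6166382), at mean levels from 0.132 to 0.521. These 6 were 85.7% of its 7 siVirma-shared sites.

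**Figure D3:**
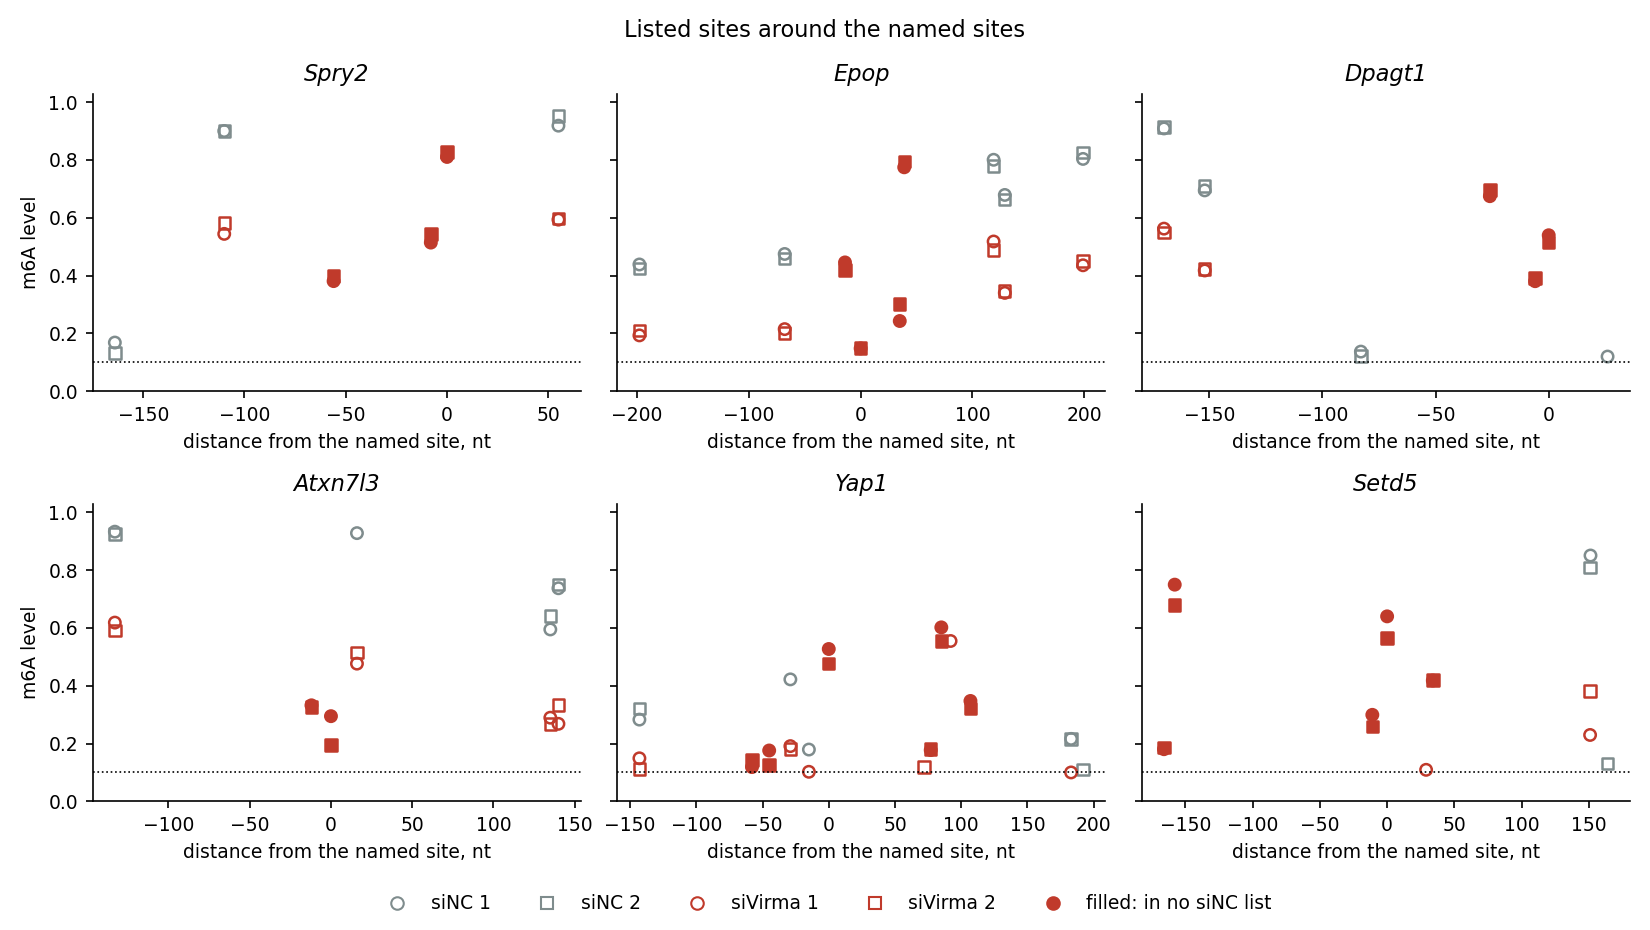
m6A level of every listed site within 200 nt of the named site in Spry2, Epop, Dpagt1, Atxn7l3, Yap1 and Setd5, against distance from it along the transcript, with siNC in grey, siVirma in red, replicate 1 as circles and replicate 2 as squares. Filled symbols are sites in neither siNC list, and in Spry2 they reach 0.828 between flanking control sites at 0.900 to 0.953.

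The highest levels among the well-covered sites were in Tef and Pakap. Tef, a PAR-family bZIP transcription factor, had 77 of 81 and 63 of 66 reads as A at chr15:81707968, a level of 0.953 ± 0.0028 (SD, n = 2). Pakap had 61 of 62 and 47 of 52 at chr4:57893257 (0.944 ± 0.0566). Crkl, an adaptor protein of tyrosine kinase signalling, had 0.851 ± 0.0176 at chr16:17301921 and 0.772 ± 0.0431 at chr16:17301889. Ccnt2, a cyclin of the P-TEFb elongation kinase, had 0.789 ± 0.0111 at chr1:127731262. Ckap4, a membrane protein of the endoplasmic reticulum, had 0.778 ± 0.0017 at chr10:84363560. Each of these sites had a siNC site 6 to 80 nt away.

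The most deeply read site was in Gm26917, a predicted gene with a gene coverage of 99406 and 99432 in the siNC libraries, and of 117857 and 94742 in the siVirma libraries. At chr17:40159074 the level was 0.604 and 0.594 over 35652 and 27586 reads. The adjacent base, 40159073, was listed in all 4 libraries, with levels of 0.548 and 0.517 in siNC and 0.507 and 0.496 in siVirma. Whether these reads come from this copy alone was not tested, so the site is uncertain. A site with no gene name at chr15:98832314 had levels of 0.122 and 0.135 at 674 and 527 reads, close to the minimum, and lay 2529 nt from the nearest siNC site.

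Most of the 1667 sites lay within 200 nt of a control site, but fewer of them than of other sites had one within 50 nt that was in both siNC lists. The median distance to the nearest site of either siNC list on the same strand was 71 nt (interquartile range 33 to 209.5). A siNC site stood within 20 nt of 213 sites (12.8%), within 50 nt of 638 (38.3%), within 200 nt of 1240 (74.4%) and within 1000 nt of 1458 (87.5%). Of the 253 well-covered sites, 244 (96.4%) had one within 200 nt, at a median distance of 36 nt. No site of both siNC lists stood within 50 nt of 83.1% of the 1667, against 51.0% of the sites of all 4 lists. A total of 131 sites (7.86%) were over 10000 nt away. Within their gene, 1132 sites (67.9%) lay inside the span of the siNC sites, 245 upstream of it by a median of 274 nt, and 138 downstream by a median of 156.5 nt. The remaining 81 were in 65 genes without a siNC site, and 71 had no gene name.

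**Figure D4:**
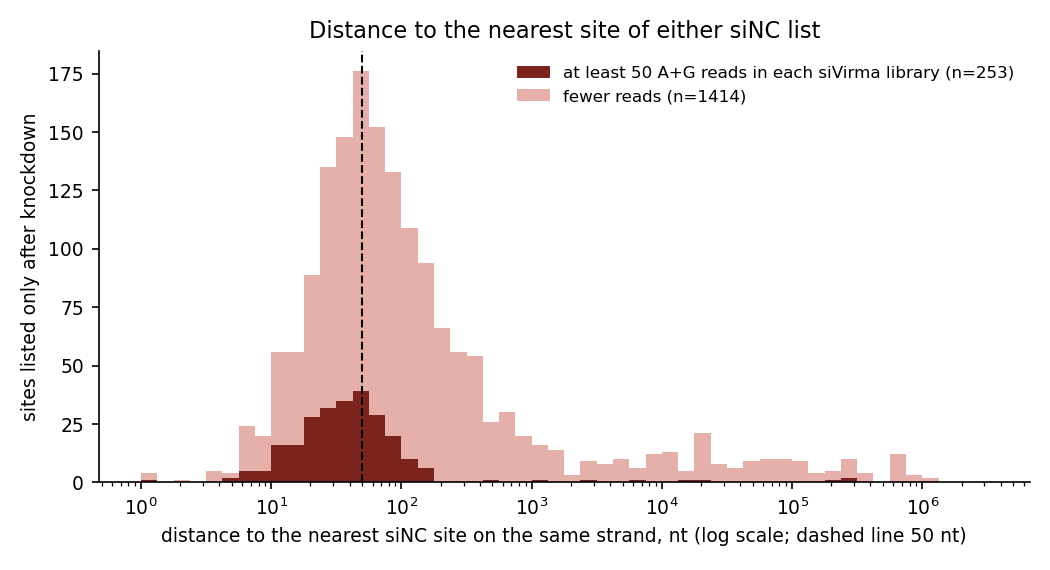
Number of sites listed only after knockdown by distance to the nearest site of either siNC list (log scale), split at 50 A+G reads in each siVirma library (253 at or above it in dark, the rest in light). The distances peak near 50 nt, marked by the dashed line, and nearly all well-covered sites lie within 200 nt.

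For 90 sites, a site of both siNC lists within 50 nt had at least 50 reads in each siNC library. The siNC reads at the 90 positions themselves are not given by the lists. These 90 had a median siVirma level of 0.351, and 72 had at least 0.2 and 35 at least 0.4. In Gpn1, a GTPase of RNA polymerase II assembly, chr5:31668556 had levels of 0.198 and 0.303, while a site 25 nt away had 239 and 222 siNC reads. In Grwd1, a ribosome biogenesis factor, chr7:45474896 had levels of 0.272 and 0.295 over 279 and 227 reads. The siNC site 31 nt from it had 199 and 182 reads, with levels of 0.854 and 0.890. In Ubl3, which encodes a ubiquitin-like protein, chr5:148442829 had levels of 0.697 and 0.667 over 76 and 54 reads. The siNC site 32 nt from it had 153 and 186 reads and levels of 0.137 and 0.161, and was in neither siVirma list.

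To set a number on coverage, the siNC reads at each site were predicted as its mean siVirma reads times the ratio of gene coverage, siNC over siVirma. This was possible for the 1441 sites whose gene had a listed site in both siNC libraries. The other sites were left out, among them the 71 without a gene name and the 81 in genes without a siNC site. The prediction had a median of 20.6 reads (interquartile range 17.0 to 32.5) in the siNC library with fewer, against 48.1 at the sites of all 4 lists. It was under 15 reads for 152 sites (10.5%), 15 to 20 for 512, 20 to 30 for 389, 30 to 50 for 160, and 50 or more for 228 (15.8%). With an unchanged level, 1208 of these 1441 sites (83.8%) would have passed the read minimums in both siNC libraries. This share was in part fixed in advance. The prediction starts from siVirma reads, which had to pass the same minimums for a site to be described here. The share was 52.99% when siVirma replicate 2 was left out of the rule and of the prediction. With all 4 libraries, the share was 90.7% at the sites of 1 siNC list and 97.6% at those of all 4 lists, which did pass. The 228 sites predicted at 50 or more reads were in 122 genes, with a median siVirma level of 0.340, and 210 of them had at least 10 predicted A reads in both siNC libraries.

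The prediction is rough for single sites. At the sites of all 4 lists, the 5th to 95th percentile of observed over predicted reads ran from 0.651 to 1.32 in siNC replicate 1 and from 0.638 to 1.28 in replicate 2. With reads at that 5th percentile, 477 of the 1441 sites (33.1%) would have passed. The same share was 37.5% at the sites of 1 siNC list and 76.3% at those of all 4 lists. Reads at the nearest site of all 4 lists within 50 nt gave a second prediction for 203 sites. Its median was 21.1 reads, and 47 sites were at 50 or more by both predictions. By this second prediction 67.5% would have passed. Both the spread and the second prediction come from sites that had to pass the read minimums in siNC, so they do not bound how few reads siNC had at sites absent from its lists. Among the siVirma-shared sites with a prediction, the share in neither siNC list was 51.7% at under 15 predicted reads and 25.9% at 15 to 20. It was 7.31% at 20 to 30, 2.11% at 30 to 50 and 2.06% at 50 or more.

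**Figure D5:**
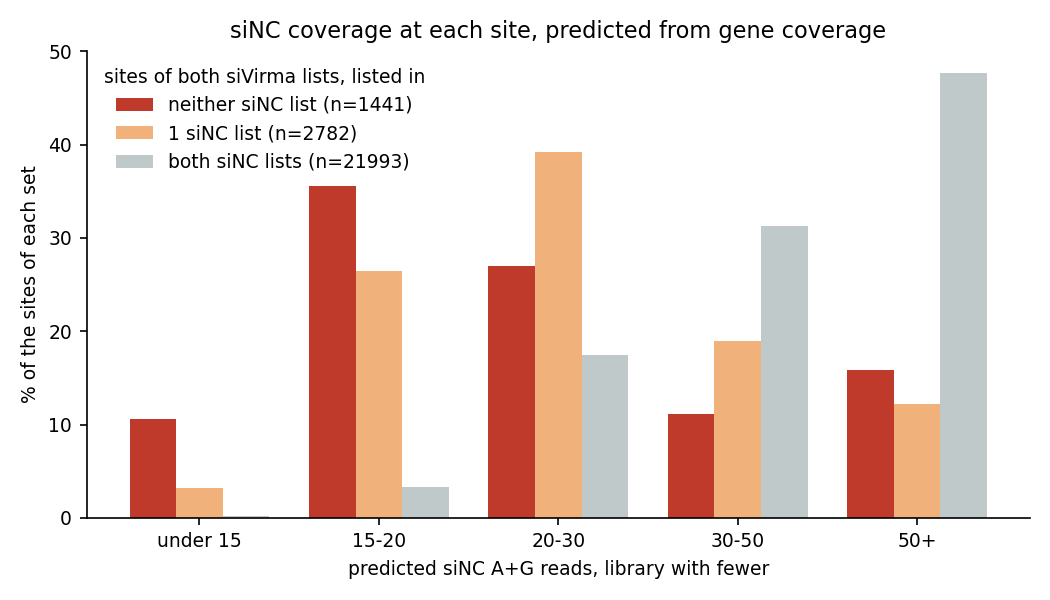
Percentage of the sites in neither (1441), 1 (2782) and both (21993) siNC lists, all from both siVirma lists, by the siNC A+G reads predicted from gene coverage in the siNC library with fewer. Sites in neither list are most often predicted at 15 to 20 reads, with 228 (15.8%) at 50 or more.

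The conversion rate that the lists give per gene was lower in siNC than in siVirma. Over the described sites its median was 0.973 in both siNC libraries and 0.983 in both siVirma libraries. The other sites had a like difference: 0.977 and 0.986 at the sites of all 4 lists, and 0.974 and 0.984 at those of 1 siNC list. The part of the conversion rate in the missing calls was not tested.

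The 1596 sites with a gene name fell in 1065 genes, which is 15.7% of the 6783 genes with a siVirma-shared site. Of these genes 739 held 1 site, 326 held at least 2 and 15 held at least 5. Spen, a transcriptional repressor of the same RNA-binding family as Rbm15, held the most, 10 of its 43 siVirma-shared sites, at 20.5 to 76 mean reads and mean levels of 0.225 to 0.775. The next 7 genes held 6 each. Kmt2d, a histone H3 lysine 4 methyltransferase, had them at 16.5 to 23 mean reads, and Maml1, a coactivator of Notch signalling, at 17 to 30. Igsf10 had them at 16 to 24.5 reads and had no siNC site at all. Yap1, Setd5 and Sac3d1 are described above. So these genes divided into well-covered and thinly covered ones: the lowest mean was 65 reads in Setd5, 75.5 in Sac3d1 and 148 in Yap1, and the highest was 35.5 in Rbm15, 30 in Maml1, 24.5 in Igsf10 and 23 in Kmt2d.

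A site of both siNC lists and of neither siVirma list was found in 701 of the 1065 genes (65.8%), near the 69.1% of the other 5718 genes with a siVirma-shared site. Among the 65 genes with no siNC site, the deepest sites had under 100 reads. Smim30, a small membrane protein, had levels of 0.247 and 0.220 at 89 and 59 reads at chr6:13870506. Prr5, a component of mTORC2, had 0.750 and 0.583 at 36 reads in each library at chr15:84587318. Nkd2, an inhibitor of Wnt signalling, had 0.167 and 0.219 at 36 and 32 reads at chr13:73968783, and St6galnac3, a sialyltransferase, 0.234 and 0.174 at 47 and 46 reads at chr3:152910943. The tRNA genes n-TDgtc16 and n-TMcat11 had 0.116 and 0.213 at 69 and 47 reads, and 0.444 and 0.250 at 36 and 32. Whether the A reads at tRNA genes come from m6A was not tested.

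The lists of related genes are given beside the 5.93% of all siVirma-shared sites. That share ran from 34.5% at 15 to 20 reads to 1.92% at 100 or more. The lists were not matched for coverage, so a difference from 5.93% cannot be told apart from one of coverage. In the writer complex, 10 of 59 siVirma-shared sites (16.9%) were in neither siNC list, and they lay in 3 of its 9 genes with such a site. Rbm15 held 6 (chr3:107237656 to 107239489) at 18 to 35.5 mean reads and mean levels of 0.179 to 0.633. Rbm15b held 3 at 27.5 to 32.5 reads and levels of 0.450 to 0.580, and Zc3h13 held 1. Of readers and erasers, 4 of 61 sites (6.56%) were in neither siNC list, all in Ythdf2, the reader that recruits RNA decay, at 20 to 40 reads. Collagen and matrix genes had 9 of 58 (15.5%) in 5 genes, with 4 in Col6a3 at 18.5 to 46 mean reads.

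Zinc finger genes had 106 of 1207 sites (8.78%) in 68 genes, among them 4 each in Zfp64 and Zfp652. Histone genes had 4 of 22, all in the linker histone gene H1f0. The tRNA genes had 6 of 67, predicted genes 37 of 702 (5.27%), and genes with Rik symbols 16 of 244 (6.56%). Immediate early and stress genes had 4 of 93, in Jun, Fosb and Jund, and p53 pathway genes 1 of 63, in Trp53inp1. Naive pluripotency genes had 1 of 128 (0.781%), in Fgf4 at chr7:144417343 with a mean level of 0.756 at 65 reads. The 2-cell stage program had 0 of 39, splicing factors 0 of 53 and ribosomal protein genes 0 of 38. No test was run on these shares.

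Gm10557, Jund, Ccn2 and Zfp652 held sites with at least 50 reads in both siVirma libraries. Gm10557 had all 3 of its siVirma-shared sites in neither siNC list, at 133 to 166 mean reads and mean levels of 0.179 to 0.256. Jund, an AP-1 subunit, had 1 at 192 mean reads and a level of 0.224. Ccn2, a matricellular growth factor, had 2 of 3 at 51.5 to 64 reads and levels of 0.110 to 0.336. Zfp652 had 4 of 10 at 39 to 72 reads and levels of 0.142 to 0.543. H1f0 and Ythdf2 held none with that coverage. H1f0 had 4 of 7 at 24 to 41.5 reads and levels of 0.260 to 0.616, each within 64 nt of a siNC site. The 4 sites of Ythdf2 had levels of 0.272 to 0.552 and lay 26 to 95 nt from a siNC site.

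Gene coverage of Rbm15 was 26.9 and 26.3 in the control libraries, and 35.3 and 35.5 after knockdown. The centred log2 change of 0.25 did not pass the adjusted p threshold of 0.05 (limma adjusted p = 0.052). It did pass without centring, with a variance trend and with the replicate number as a block. Both siVirma values were higher than both siNC values. Before centring, gene coverage was likewise higher in both siVirma libraries at 65.4% of the 1441 described sites with a prediction. At the sites of all 4 lists this share was 56.8%. The 6 sites of Rbm15 were predicted at 13.4 to 26.3 siNC reads. The 5 sites of Rbm15 that are in all 4 lists had median levels of 0.828 and 0.750 in siNC, against 0.364 and 0.450 in siVirma. The mean levels of the 6 sites in neither siNC list lay on both sides of those siVirma medians.

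Gene coverage was compared between siVirma and siNC with limma, after centring each library on its median gene. Of all 6787 genes with a site in every list, 9.15% were higher and 12.4% lower in siVirma. Of the 941 of them with a site listed only after knockdown, 117 were higher (12.4%) and 61 lower (6.48%). The median centred log2 change was -0.01 in these 941 genes and -0.04 in all 6787. The contrast is the one the rule used, so nothing is read from these counts, and the values of single genes are a description with no test. The number of genes called changed most without siVirma replicate 1, which leaves 1 library in that group. The changes themselves kept their direction in the genes named below. Without that library the log2 change was 1.40 in Hes6 (1.46 with all libraries), -1.03 in Neat1 (-1.07) and -0.38 in Rsl1 (-0.48). Without centring, which removed a shift of 0.17 on the log2 scale, 113 of the 941 genes were higher and 3 lower. In bulk RNA, fewer cells of a type and less RNA per cell cannot be told apart.

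Hes6, a bHLH transcription factor of neurogenesis, had the largest positive difference of coverage among the 117, from 44.9 and 42.5 in siNC to 153 and 120 in siVirma. Both siVirma values lay above both siNC values, a centred log2 change of 1.46. Its only siVirma-shared site was in neither siNC list. Col6a3, a chain of collagen VI, went from 23.9 and 22.7 to 63.4 and 53.9 (log2 change 1.16), and its 4 sites were predicted at 7.16 to 17.8 siNC reads. Inhbb, a subunit of activin B, Col1a2, a chain of collagen I, and Oaf had centred log2 changes of 0.69, 0.61 and 0.60.

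Neat1, the long noncoding RNA of paraspeckles, had the largest negative difference among the 61, from 280 in each siNC library to 157 and 143 in siVirma (log2 change -1.07). It held 2 of the sites, at 249.5 and 252 mean reads and mean levels of 0.204 and 0.545, at chr19:5893901 and 5893908. The prediction there was 465 to 470 siNC reads. 4930503L19Rik and Map9, a microtubule-associated protein, each had a centred log2 change of -0.63, Rsl1, a KRAB zinc finger repressor, of -0.48 and Thbs1, thrombospondin 1, of -0.47.

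Sites of all 4 lists beside the described sites fell as other sites did. With at least 20 reads in each library, 176 such sites lay within 50 nt, and 165 of them fell (93.8%), against 91.6% of the 20414 sites tested with edgeR at an adjusted p of 0.05. A single one rose, against 0.147% of all: chr13:22121309 in the tRNA gene n-TSaga1, with levels of 0.929 and 0.925 in siNC and 0.991 and 0.955 in siVirma (edgeR adjusted p = 0.042). It did not pass when siVirma replicate 1, siNC replicate 1 or siNC replicate 2 was left out. Whether the A reads at this tRNA position come from m6A was not tested. The median levels of the 176 neighbours were 0.761 and 0.780 in siNC and 0.350 and 0.343 in siVirma. Over all sites tested they were 0.646 and 0.645, and 0.266 and 0.269. The neighbours were thus higher than the rest in every library, at 51.5 and 47 reads in siNC against 53 and 50 for all.

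The EPSC table, which the rule did not use, lists some of the positions. It held 122 of the 1667 sites (7.32%, Wilson interval 6.16% to 8.67%), 9.65% of the sites of 1 siNC list and 38.7% of those of all 4 lists. The 7.32% became 3.10% when siVirma replicate 2 was left out of the rule and 4.39% without siVirma replicate 1. Of sites with at least 50 siVirma reads it held 73 of 253 (28.9%, interval 23.6% to 34.7%), 33.0% and 62.2% of the same 3 sets. The 19342 rows of that table pool 964966 A+G reads in sgCtrl and 1044927 in sgGata6, fewer than any TBLC list holds.

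Where read deeply enough, most of the positions had higher levels in EPSC than in siVirma TBLC, as did the other sites. For the 32 sites with at least 20 reads in both EPSC groups, the median level was 0.727 in sgCtrl and 0.623 in sgGata6, and 0.357 in siVirma at the same sites. The sgCtrl level was above the siVirma level at 30 of the 32 (93.8%), which is near the 95.6% (3706 of 3878) of the sites of all 4 lists and the 90.5% of the sites of 1 siNC list. At the sites of all 4 lists with the same EPSC coverage, medians were 0.529 in sgCtrl, 0.604 in siNC and 0.231 in siVirma. EPSC and TBLC are different cells, so the difference between them was not tested.

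At the Dpagt1 site chr9:44247281, 59 of 71 sgCtrl reads were A (0.831, Wilson interval 0.727 to 0.901), and the level in sgGata6 was 0.803 over 147 reads. At the Spry2 site chr14:106130536 the levels were 0.971 over 34 reads in sgCtrl and 0.938 over 32 in sgGata6. The Epop site 97518951 had 0.886 over 88 reads and 0.915 over 71, and the Atxn7l3 site 102182268 had 0.735 over 49 and 0.676 over 37. Slc2a1, the glucose transporter GLUT1, had 0.352 and 0.440 at chr4:118994033. Slc7a5, a transporter of large neutral amino acids, had 0.538 and 0.542 at chr8:122609214. Itga6, integrin alpha 6, had 0.280 and 0.284 at chr2:71687299, against 0.108 and 0.117 in siVirma. At these sites both EPSC levels were above both siVirma levels. At the n-TMcat11 site they were below both, with 0.194 over 31 reads in sgCtrl and 0.136 over 22 in sgGata6, against 0.444 and 0.250 in siVirma.

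Between sgGata6 and sgCtrl, Fisher's exact test on pooled reads called 0.275% of the 10185 EPSC sites tested, and 1 of the 32 described sites. This was the Gm26917 site, described above as uncertain. It had 6719 of 9986 reads as A (0.673) in sgCtrl and 3883 of 7035 (0.552) in sgGata6. The siVirma levels there, 0.604 and 0.594, lay between those of the EPSC groups. The test compares the pooled reads of these libraries and not the conditions, and its p-value at such read numbers covers counting error only. At an unadjusted p under 0.05 there were 2 of the 32. The median change of level, sgGata6 minus sgCtrl, was -0.035 over the 32 sites and -0.009 over all sites tested.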

How the data were processed

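The authors made a list of called sites from the GLORI reads of each TBLC library. Per the file headers these lists give counts of A+G and of A reads, the level and the gene's conversion rate, both as a fraction, a gene coverage signal, and a p-value and adjusted p-value per site. The submitters' processing notes name the build mm39. For the aligner, the caller and the definitions of conversion rate and gene coverage, nothing is stated (not given in the sources used here). The lowest values were 15 A+G reads, 5 A reads and a level of 0.1, and the highest deposited adjusted p was 0.0040. In the deposited EPSC table the libraries of a group are pooled to 1 value, so Fisher's exact test replaced the planned edgeR test.

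Gene coverage (log2, centred per library, no pseudocount) was tested with limma 3.58.1, and A and G counts of sites with at least 20 reads in each of the 4 libraries with edgeR 4.0.16 (quasi-likelihood, a term per library), in R 4.3.3, with Benjamini-Hochberg adjustment over all features and a threshold of 0.05. Values of sites without a gene name were left out of gene coverage. Summaries used Python 3.11.15, pandas 2.3.3, numpy 2.4.6 and scipy 1.17.1, and plots matplotlib 3.10.9. Wilson intervals (95%) cover counting error only. Tested on simulated data, limma recovered 100% of 200 genes changed 2-fold among 6787, with 7.83% of its calls wrong, and edgeR 54% of 200 sites at 0.5 of their level among 20414, with 12.2% wrong. The simulated noise was assumed, and far fewer sites changed than the 91.6% called lower in the data. These figures therefore do not give the recovery or the wrong calls of the real fits.

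The members and lists were chosen with earlier results of these data known. Named items were the 8 genes with the most sites, the 8 highest levels at 50 or more reads, the 6 deepest sites of all, in genes without a siNC site, in EPSC and beside a deep siNC site, the 5 genes with the largest rise and fall of coverage, and up to 2 genes per list. Of 1065 gene symbols, 1056 were found in the name tables (GRCm38.p6, names only). Alternatives were other read, level and p minimums, windows, predictors, centring, variance trend, replicate block and leaving out each library.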

Additional observations from a re-analysis of the deposited data

How the results depend on the processing

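The number of sites depended on coverage and on every library: 933 sites had at least 20 reads in both siVirma libraries and 253 had at least 50, and rules that left out a library gave 2715 to 5703. Their median level was 0.367 at 20 reads and 0.344 at 50, and 0.333 to 0.396 without a library. The share with a siNC site within 50 nt was 48.7% at 20 reads. It was 12.8% within 20 nt, 74.4% within 200 nt and 16.9% for sites of both siNC lists, and 28.5% to 33.4% without a library. The share predicted to pass the minimums was 67.5% with the neighbour's reads, 94.4% with the centred gene coverage ratio, and 52.99% to 89.6% without a library. Genes with higher coverage numbered 2 to 94 without a library (2 without siVirma replicate 1, 75 without siNC replicate 1 and 53 without siNC replicate 2), and genes with lower coverage 1 to 67 (1 without siVirma replicate 1 and 32 without siNC replicate 2), and 3 without centring. Neighbours that fell numbered 72 at 50 reads in each library, 768 within 200 nt and 159 to 277 without a library. Those that rose numbered 2 within 200 nt and 0 to 1 without a library. The EPSC share was 1.92% with 20 reads in both EPSC groups, 6.00% where sgCtrl passed the minimums, and 3.10% to 9.28% without a library. The mean number of neighbours within 50 nt was 2.08 at 100 reads, an alternative chosen after seeing the data.

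Some named genes whose coverage change did not pass also turned in direction. Without a library, the log2 change of Maml1 ran from -0.0236 to 0.0565, that of Trp53inp1 from -0.0229 to 0.0905 and that of n-TRcct3 from -0.0610 to 0.218. Without centring, Gm11227 was at 0.0949 and Zfp652 at 0.0818. Leaving out siVirma replicate 1 or another library leaves 1 library in a group, which is assumed to vary like the other group.

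Replicate numbers are shared by the groups, but with 2 pairs and correlations of deviations of 0.14 (gene coverage) and 0.0087 (site levels) they do not pair the libraries. With the replicate number as a block, 141 genes were higher and 105 lower, and 165 neighbours fell and 1 rose. The planned share of sites with the DRACH motif was not run, since no genome of the build was used here. Depth limits the result: 734 of the 1667 sites had under 20 reads in a siVirma library, and absence from a siNC list gives no level.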
